A study of Mus musculus with 12 samples.

Results

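Oxidative phosphorylation genes encode the respiratory chain and the ATP synthase, and 105 of the 55401 genes in the count tables were taken by name as members: protein-coding genes whose symbols mark subunits of complexes I to V, together with the complex I assembly factors Ndufaf1 to Ndufaf8, which carry the same prefix. Of these, 92 were nuclear genes and 13 were encoded by mitochondrial DNA. By complex, the nuclear members were 36 of complex I and 8 of its assembly factors, 4 of complex II, 8 of complex III, 18 of complex IV and 18 of complex V. Ndufa4 and Ndufa4l2, despite their prefix, were counted in complex IV, and a coupling factor with the Atp5 prefix was counted in complex V. The mitochondrial members were 7 of complex I, 1 of complex III, 3 of complex IV and 2 of complex V. Counts were present for 104 members, and 102 passed the filter on low counts and were tested. The 3 that did not pass were Cox6a2 and Cox8b, muscle-type isoforms with at most 7 counts in any line, and an annotated read-through model named Atp5o, which had 0 counts.

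The libraries came from mouse totipotent potential stem (TPS) cells kept in VCED medium and from extended pluripotent stem (EPS) cells kept in LCDM medium, both on feeder cells by the labels. The study's methods describe TPS medium under another name, CPEC, with the histone deacetylase inhibitor VPA, the GSK3 inhibitor CHIR-99021, the DOT1L inhibitor EPZ004777 and the RARγ agonist CD1530, on either of 2 basal media and with added pyruvate and lactate. The feeders they name for TPS cells are growth-arrested mouse embryonic fibroblasts. Which basal medium, strain and starting cells were used for the sequenced TPS lines is not given in the sources used here. There were 3 lines of each kind, each sequenced as 2 technical replicates, so 12 libraries were made from oligo(dT)-selected RNA. Medium and cell state cannot be told apart in this design, and p-values measure only the spread between lines.

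Complex I takes electrons from NADH and complex II from succinate, and both pass them through ubiquinone to complex III, cytochrome c and complex IV, where oxygen is reduced. Complexes I, III and IV pump protons across the inner mitochondrial membrane, and complex V uses the returning protons to make ATP. Complex II is wholly nuclear-encoded, whereas the other complexes join nuclear subunits to core subunits made inside the organelle, so their supply draws on both genomes. Preimplantation mouse embryos depend first on pyruvate and lactate oxidised in mitochondria and turn to glucose later.

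Library totals ran from 14652746 to 21821707 counts in TPS and from 13676051 to 20077288 in EPS cells. The totals after summing the technical replicates were 29877215 to 38466294 counts per line. The identity of the cells was checked with 3 marker lists. By edgeR (adjusted p under 0.05), 14.4% of all tested genes were called higher in TPS lines and 7.34% lower. All 7 tested totipotency genes, Zscan4c among them, were called higher in TPS lines, although they passed the filter on low counts only through those lines, and 4 of 7 pluripotency genes (Pou5f1, Esrrb, Klf4 and Tdgf1), or 57.1%, were called lower. Of 16 fibroblast genes, 11 (68.8%) were called higher in TPS lines, with all 16 log2 fold changes above 0 and a median of 2.07. Their summed level was 6190, 3476 and 3580 CPM (counts scaled to the library total and its composition factor) in TPS lines 1 to 3 and 343, 1300 and 1388 CPM in EPS lines 1 to 3, and 0 of the 16 genes were at 0 in any line. The part of the fibroblast signal in the results that follow was not tested.

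Nuclear members were mostly lower in TPS lines by a modest amount, whereas mitochondrial members showed no common fall. By edgeR's quasi-likelihood test with Benjamini-Hochberg adjustment over all 17468 tested genes, 8 of 89 tested nuclear members were called lower in TPS lines (adjusted p under 0.05), beside 7.34% of all tested genes called in that direction. Called higher were 2, beside 14.4% of all tested genes. The share of nuclear members called lower, 8.99%, was thus close to that background. Their directions were more one-sided, since 79 of 89 had a negative log2 fold change and the median was -0.36, against -0.00378 over all tested genes. For 35 of 89 nuclear members, or 39.3%, every TPS line lay below every EPS line, beside 19.1% of all tested genes, and for 3 every TPS line lay above, beside 23.6% of all tested genes. Those 3 were Ndufb2, Cox7b2 and Cox8c. They passed the filter on low counts only through the TPS lines, since 2, 1 and 0 EPS lines reached its level. None of the 13 mitochondrial members was called by edgeR, DESeq2 or limma-voom on the 6 lines. In edgeR, 2 of them were higher at an unadjusted p under 0.05 (beside 21.8% of all tested genes), 11 had a positive log2 fold change, and the median was 0.11.

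**Figure D1:**
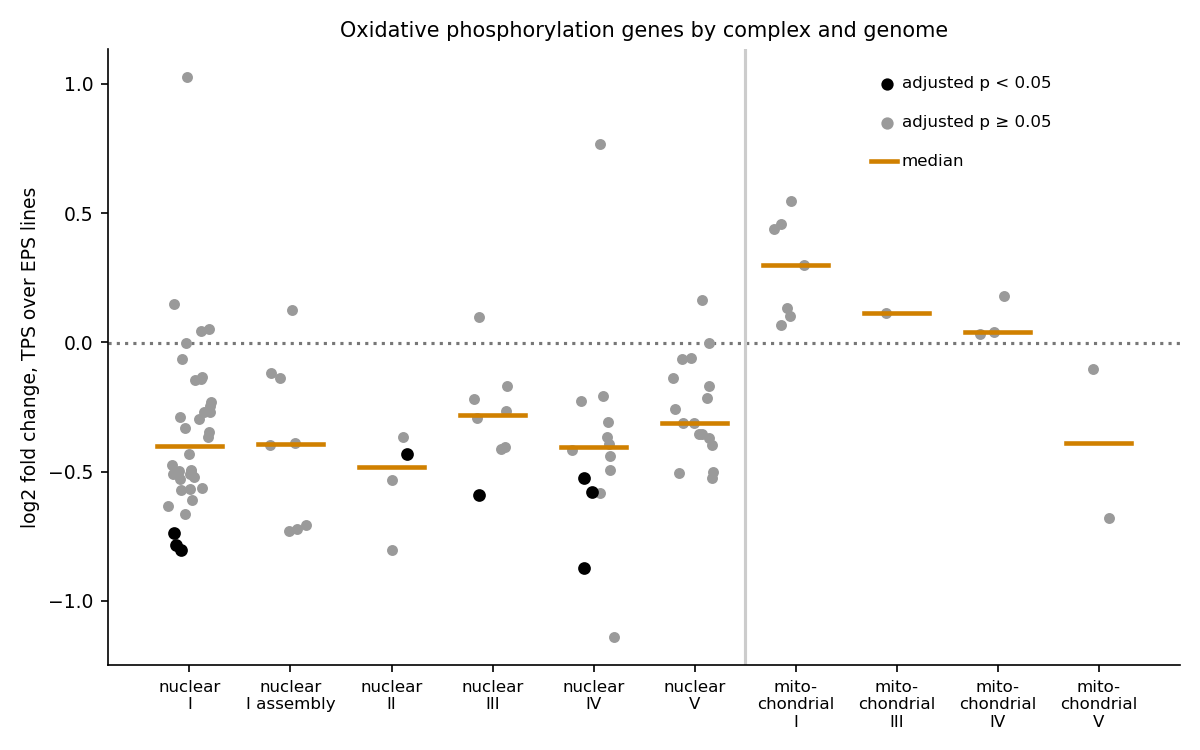
Log2 fold change of TPS over EPS lines (y axis) for each tested member, by complex and by genome (x axis). Black points had an adjusted p under 0.05 in edgeR's quasi-likelihood test, grey points did not, orange bars are medians and the dotted line is the median of all tested genes. Cox8c (7.48) and Cox7b2 (4.09), both nuclear complex IV genes, lie above the axis and are not drawn. The nuclear medians lie between -0.48 and -0.28, and the mitochondrial complex I median is 0.30.

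The summed level of the nuclear members was 10176, 11342 and 10834 CPM in TPS lines 1 to 3 and 16982, 12331 and 12468 CPM in EPS lines 1 to 3. The groups did not overlap on this scale, but EPS line 1 stood far above the other EPS lines. The TPS mean of these CPM sums was 77.4% of the EPS mean, and 87.0% when EPS line 1 was left out. As a share of all counts, without composition scaling, the nuclear members made up 1.06%, 1.2% and 1.14% in TPS and 1.55%, 1.18% and 1.22% in EPS lines, and TPS line 2 was then above EPS line 2. On that scale the fall was smaller, with the TPS mean at 86.1% of the EPS mean, and 94.4% without EPS line 1. EPS line 1 held the highest value for 80 of the 89 tested nuclear members, or 89.9%, compared with 24.1% of all tested genes, while TPS line 1 held the lowest value for 48. Without EPS line 1, the median of the nuclear members was -0.20, 70 of 89 had a negative log2 fold change, and 1 was called lower, beside 4.46% of all tested genes. The fibroblast sums of the 6 lines ran in the opposite order to their nuclear sums, from TPS line 1 with the highest fibroblast and lowest nuclear sum to EPS line 1 with the lowest and the highest, except that EPS line 3 was slightly above EPS line 2 in both. In bulk RNA, fewer cells of a type and less RNA per cell cannot be told apart.

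**Figure D2:**
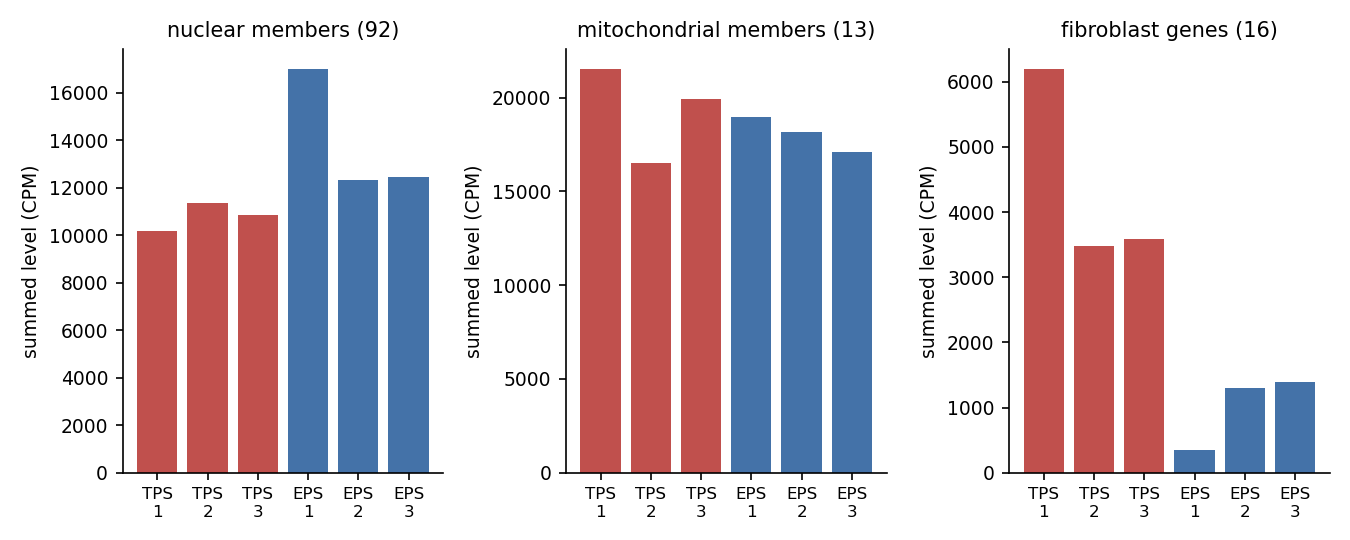
Summed level in CPM (y axes, from 0) of the 92 nuclear members, the 13 mitochondrial members and the 16 fibroblast genes in each TPS line (red) and EPS line (blue). EPS line 1 has the highest nuclear sum, 16982 CPM, and the lowest fibroblast sum, 343 CPM. The mitochondrial sums of the 2 groups overlap.

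The share of all counts on the 13 mitochondrial members was 2.24%, 1.75% and 2.10% in TPS lines 1 to 3 and 1.73%, 1.74% and 1.68% in EPS lines 1 to 3. Every TPS line was above every EPS line, although TPS line 2 was only just so. After composition scaling the sums were 21498, 16505 and 19944 CPM in TPS and 18954, 18170 and 17072 CPM in EPS lines, and TPS line 2 was then the lowest of all 6. The ratio of mitochondrial to nuclear counts was 1.80 ± 0.33 (SD, n = 3) in TPS and 1.32 ± 0.18 (SD, n = 3) in EPS lines, with TPS line 2 (1.46) below EPS line 2 (1.47). The mitochondrial share also moved between technical replicates of a line: in EPS line 3 it was 1.54 times as high in the second as in the first (1.29% and 1.98%), and in EPS line 1 it was 0.865 times as high (1.88% and 1.63%). In the other 4 lines that ratio was 0.963 to 1.05, a move of at most 0.0862 percentage points, whereas the nuclear share of every line stayed within a ratio of 0.976 to 1.02. The difference between these 2 runs of EPS line 3 was thus 0.697 percentage points, larger than the 0.316 between the group means.

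Complex I, the NADH dehydrogenase, has the most subunits. Its 36 nuclear members had a median log2 fold change of -0.40, with 32 negative, and -0.21 without EPS line 1. The 3 called lower were 8.33% of them, close to the 7.34% of all tested genes, and 0 were called higher, beside 14.4%. For 13 of them (36.1%) every TPS line lay below every EPS line, beside 19.1% of all tested genes. Ndufs4, an accessory subunit of the electron-accepting arm whose loss causes a Leigh-like disease in mice, measured 43.6, 49.9 and 51.1 CPM in TPS lines and 104, 69.8 and 67.7 CPM in EPS lines. No TPS line reached the lowest EPS line. Its log2 fold change was -0.74 (SE 0.19, edgeR adjusted p = 0.0329). Ndufb5, an accessory subunit of the membrane arm, measured 36.8, 30.7 and 31.1 CPM in TPS and 76.1, 43.3 and 50.6 CPM in EPS lines, a log2 fold change of -0.79 (SE 0.22, edgeR adjusted p = 0.0434). Ndufb11, also of the membrane arm and X-linked, measured 48.7, 59.3 and 55.4 CPM in TPS and 109, 110 and 66.8 CPM in EPS lines. EPS line 3 was only slightly above the highest TPS line. The log2 fold change of Ndufb11 was -0.80 (SE 0.21, edgeR adjusted p = 0.0323), the largest fall among these 36. Exons of Ndufb5 and Ndufb11 overlap those of Mrpl47 and Rbm10 on the opposite strand over 12.3% and 12.9% of their length, and without strand such reads cannot be assigned.

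Of the core subunits of complex I, Ndufv1 had a log2 fold change of -0.56 (edgeR adjusted p = 0.0543) and Ndufs1 of -0.30 (edgeR adjusted p = 0.221), so neither passed. Per length, Ndufa1 was the most abundant nuclear member of this complex, at 201 TPM (length-scaled abundance) in TPS and 261 TPM in EPS lines. It measured 30.3, 24.5 and 35.0 CPM in TPS and 43.7, 56.4 and 32.9 CPM in EPS lines, and the groups overlapped. Ndufb2 had the largest positive log2 fold change, 1.03 (SE 0.74, edgeR adjusted p = 0.352), but rested on 27, 24 and 16 counts in TPS and 11, 17 and 1 counts in EPS lines. It passed the filter on low counts only through the TPS lines. Ndufb5 and Ndufb11 had at least 979 counts in every line, and Ndufb2 overlaps a protein-coding gene on its own strand. The 8 assembly factors had a median of -0.39, or -0.24 without EPS line 1, and 7 were negative. By edgeR 0 were called lower, with 2 at an unadjusted p under 0.05 (beside 15.2% of all tested genes), by limma-voom 0 (beside 7.13%) and by DESeq2 2 (beside 7.61%). Among them Ndufaf3 was lowest at -0.73 (SE 0.25, edgeR adjusted p = 0.0754), Ndufaf6 had the highest level per length in EPS lines at 46.2 TPM, and Ndufaf2 was the only positive one at 0.12.

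Complex II, succinate dehydrogenase, also serves the citric acid cycle. All 4 genes had negative log2 fold changes, with a median of -0.48, or -0.35 without EPS line 1. Of the 4, 1 was called lower (beside 7.34% of all tested genes), and for 3 every TPS line lay below every EPS line (beside 19.1%). Sdha, the flavoprotein that oxidises succinate, measured 247, 266 and 265 CPM in TPS and 387, 325 and 339 CPM in EPS lines. The TPS lines were tightly grouped below all EPS lines, with a log2 fold change of -0.43 (SE 0.12, edgeR adjusted p = 0.044). The call was lost with DESeq2 on the same lines (DESeq2 adjusted p = 0.0542) and when any 1 line was left out (edgeR adjusted p from 0.0534 to 0.133). Sdhb, the iron-sulfur subunit, had the most negative value, -0.80 (SE 0.26, edgeR adjusted p = 0.065), and did not pass. It measured 76.6, 79.4 and 76.3 CPM in TPS and 200, 99.8 and 106 CPM in EPS lines, so EPS line 1 alone set much of that difference. Sdhd, a membrane anchor, had the highest level per length, 299 TPM in TPS and 335 TPM in EPS lines, and was the least negative at -0.36.

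Complex III, the cytochrome bc1 complex, had a median of -0.28 over its 8 nuclear members, or -0.15 without EPS line 1. The 1 called lower (12.5%, beside 7.34% of all tested genes) and the 2 for which every TPS line lay below every EPS line (25.0%, beside 19.1%) were near the background. Uqcrc2, a core protein, measured 111, 142 and 123 CPM in TPS and 226, 164 and 176 CPM in EPS lines, without overlap, and its log2 fold change was -0.59 (SE 0.17, edgeR adjusted p = 0.0419). Its partner Uqcrc1 measured 284, 329 and 322 CPM in TPS and 538, 380 and 318 CPM in EPS lines, and 2 TPS lines were above EPS line 3. Uqcrh, the hinge protein, was the only positive member at 0.10 (edgeR adjusted p = 0.586). Uqcr10 had the highest level per length, at 519 TPM in TPS and 550 TPM in EPS lines.

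Complex IV, cytochrome c oxidase, had a median of -0.41 over its 16 tested nuclear members, or -0.28 without EPS line 1. Of these, 3 were called lower (18.8%, beside 7.34% of all tested genes) and 2 higher (12.5%, beside 14.4%, so no more than the background), and for 7 (43.8%, beside 19.1%) every TPS line lay below every EPS line. Cox6b2, the testis isoform of a subunit that bridges the dimer, measured 24.8, 23.8 and 28.9 CPM in TPS and 56.3, 41.9 and 43.6 CPM in EPS lines. Its log2 fold change was -0.87 (SE 0.17, edgeR adjusted p = 0.013). Alone among the 8 lower calls, it kept its call whichever of the 6 lines was left out. By limma-voom Ndufb5 and Cox6b1 were not called (limma adjusted p = 0.0548 and 0.0539). The ubiquitous isoform Cox6b1 measured 99.8, 120 and 113 CPM in TPS and 204, 137 and 157 CPM in EPS lines, a log2 fold change of -0.58 (SE 0.17, edgeR adjusted p = 0.049). Cox7b, an X-linked subunit, measured 108, 112 and 116 CPM in TPS and 190, 141 and 153 CPM in EPS lines, a log2 fold change of -0.53 (SE 0.14, edgeR adjusted p = 0.0385). For all 3 of these genes the lines of the 2 groups were separate. Cox8a had the highest level per length, at 1068 TPM in TPS and 1382 TPM in EPS lines, and did not pass at -0.58 (edgeR adjusted p = 0.0591).

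Both members called higher were rare testis-type isoforms of complex IV. Cox7b2, the paralogue of Cox7b, had 333, 47 and 43 counts in TPS and 5, 10 and 6 counts in EPS lines. TPS line 1 held most of them. The log2 fold change was 4.09 (SE 0.89, edgeR adjusted p = 0.0178), it was 2.60 without TPS line 1 (edgeR adjusted p = 0.0224), and the adjusted p rose to between 0.0543 and 0.0625 when any EPS line was left out. Cox8c had 37, 13 and 20 counts in TPS lines and 0 in every EPS line. Against a floor of 3 counts in each EPS line, its TPS level of 0.632 ± 0.294 CPM (SD, n = 3) was at least 6.46-fold higher. The floor covers counting error only. Cox8c and Cox7b2 passed the filter on low counts only through the TPS lines, since 0 and 1 EPS lines reached its level of 0.28 CPM, so both calls are given as a description.

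**Figure D3:**
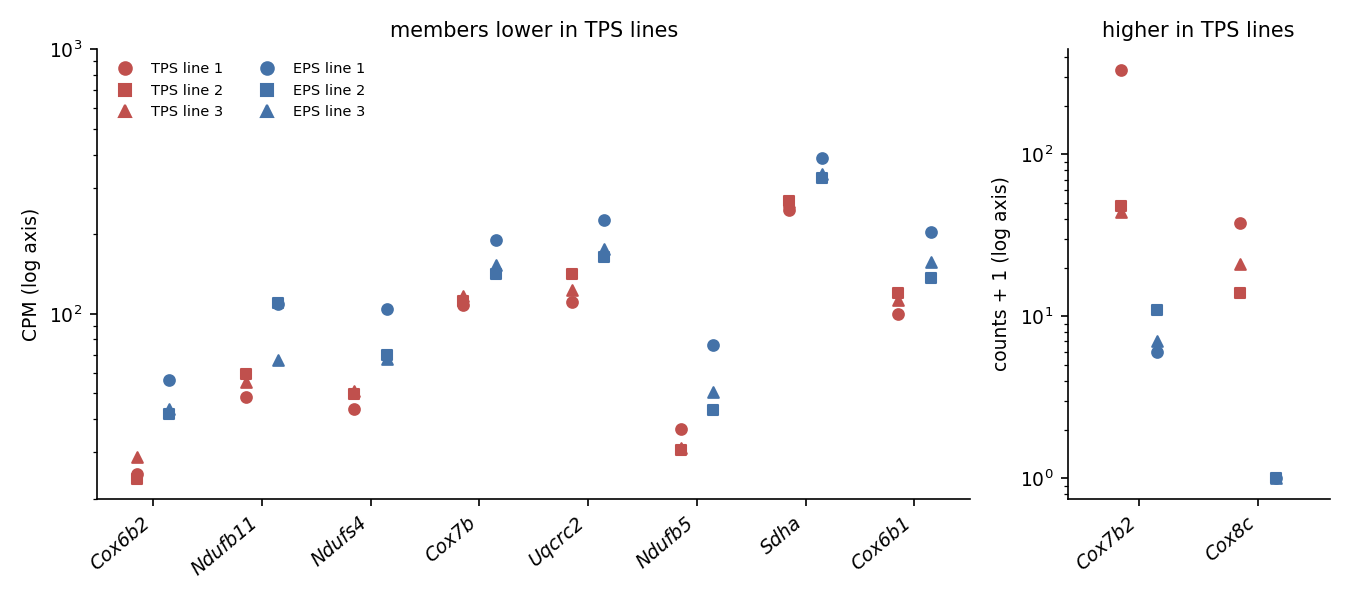
Left, the CPM (log axis) of the 8 members called lower in TPS lines, ordered by adjusted p. Right, the counts plus 1 (log axis) of the 2 members called higher. Red marks TPS and blue EPS lines, with circles, squares and triangles for lines 1, 2 and 3. No gene has overlapping groups, and TPS line 1 has 333 of the Cox7b2 counts.

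Isoform balance was compared per length, as the share of each isoform in the summed TPM of its family. Cox7b2 made up 14.7%, 2.38% and 2.56% of its pair in TPS lines and at most 0.464% in an EPS line. Cox6b2 made up 13.7%, 11.2% and 14.1% in TPS lines, each below every EPS line (15.5 ± 0.752%, SD, n = 3). Among the genes for the c subunit of the ATP synthase rotor, Atp5g2 made up 45.5 ± 1.51% in TPS and 54.5 ± 2.46% in EPS lines (SD, n = 3 each), and Atp5g3 made up 42.8 ± 0.654% and 36.6 ± 1.93%. The shares of these genes did not overlap between groups. Atp5g2 has 2 identical processed pseudogenes whose counts came to 65.9% of its own, so its level is uncertain.

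For Cox7a1, Cox4i2, Ndufa4l2 and Cyct the counts or CPM of the groups overlapped. Cox7a1, a heart and muscle isoform, had 471, 394 and 188 counts in TPS and 255, 130 and 151 counts in EPS lines, a log2 fold change of 0.77 (edgeR adjusted p = 0.2). As a share of its family's TPM it did not overlap, at 9.90%, 8.07% and 5.24% in TPS and 5.10%, 3.01% and 3.53% in EPS lines. Cox4i2, a lung isoform that the naming rule did not take, had 74, 133 and 14 counts in TPS and 29, 24 and 16 counts in EPS lines, beside a ubiquitous Cox4i1 with a log2 fold change of -0.27 (edgeR adjusted p = 0.312). Ndufa4l2, a hypoxia-responsive relative of Ndufa4, had 638, 1343 and 39 counts in TPS and 1834, 1490 and 391 counts in EPS lines. Its log2 fold change was the lowest of all members, -1.14, with a standard error of 0.98 (edgeR adjusted p = 0.438). The testis cytochrome c gene Cyct measured 29.8, 16.8 and 43.3 CPM in TPS and 11.1, 19.6 and 1.45 CPM in EPS lines. The somatic Cycs measured 193, 170 and 195 CPM in TPS and 156, 112 and 137 CPM in EPS lines, without overlap, and had a log2 fold change of 0.46 (edgeR adjusted p = 0.0675).

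**Figure D4:**
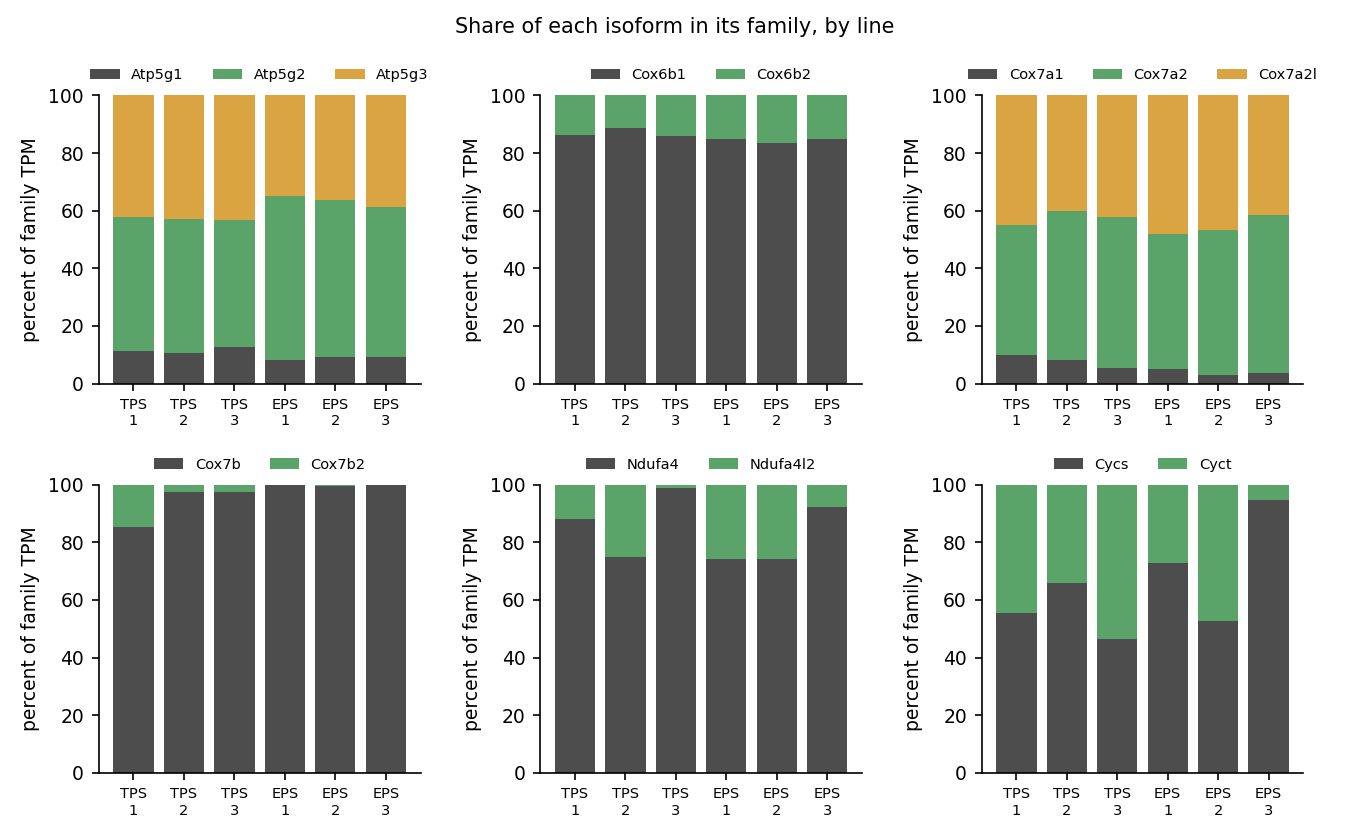
Share of each isoform in the summed TPM of its family (y axis, percent) in each TPS and EPS line (x axis), for 6 families. The Atp5g2 share is lower in every TPS line than in every EPS line, Cox7b2 is largest in TPS line 1 at 14.7%, and the shares of Ndufa4l2 and Cyct differ widely among lines of 1 group.

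Complex V, the ATP synthase, had 0 of 17 tested nuclear members called lower in edgeR, 0 in DESeq2 and 0 in limma-voom on the 6 lines, beside 7.34%, 7.61% and 7.13% of all tested genes. In a list of this length that is near the background. In edgeR 5 were lower at an unadjusted p under 0.05, beside 15.2% of all tested genes. The median was -0.31, 16 were negative, and for 6 (35.3%, beside 19.1% of all tested genes) every TPS line lay below every EPS line. Atp5b, the catalytic beta subunit, had the highest level per length, 1244 TPM in TPS and 1339 TPM in EPS lines. It measured 1833, 1928 and 1853 CPM in TPS and 2763, 2036 and 2163 CPM in EPS lines, which did not overlap, with a log2 fold change of -0.31 (SE 0.15, edgeR adjusted p = 0.18). EPS line 1 was well above the other lines. Without EPS line 1 the complex V median was -0.08 and 11 of 17 were negative. Atp5h, a stalk subunit, had the most negative value, -0.52 (SE 0.17, edgeR adjusted p = 0.0659). Atp5g1 was the only positive member at 0.16 (edgeR adjusted p = 0.419). Some members share sequence with near-identical copies, most of them processed pseudogenes: the counts of such copies came to 96.9% of those of Atp5l (9 copies), 29.4% of those of Atp5o and, in complex I, 27.7% of those of Ndufs5, so these levels are uncertain.

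The 13 mitochondrial genes are transcribed together as long precursors and cut apart, 12 from the heavy strand and mt-Nd6 from the light strand. The most abundant per length were mt-Co1 and mt-Co2, core subunits of complex IV, at 11144 and 10221 TPM in TPS and 9466 and 8714 TPM in EPS lines. In complex IV, mt-Co1 measured 6997, 5613 and 5749 CPM in TPS and 6227, 6503 and 5104 CPM in EPS lines. The groups overlapped, as they did for mt-Co2 and mt-Co3, and log2 fold changes were 0.04, 0.03 and 0.18. In complex V, mt-Atp6 had -0.10, and mt-Atp8, whose reading frame overlaps that of mt-Atp6, had -0.68 (SE 0.56) on only 225 counts in all lines together. In complex III, mt-Cytb had 0.11.

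The 7 mitochondrial subunits of complex I all had positive log2 fold changes, with a median of 0.30. The largest was mt-Nd5, which measured 1133, 789 and 927 CPM in TPS and 519, 701 and 730 CPM in EPS lines. Every TPS line was above every EPS line, with a log2 fold change of 0.55 (SE 0.19, edgeR adjusted p = 0.0787). The light-strand gene mt-Nd6 measured 209, 149 and 173 CPM in TPS and 145, 116 and 130 CPM in EPS lines, without overlap, with a log2 fold change of 0.44 (SE 0.16, edgeR adjusted p = 0.0932). For the other 5 the groups overlapped, at 0.46 for mt-Nd4l, 0.30 for mt-Nd4, 0.13 for mt-Nd3, 0.10 for mt-Nd2 and 0.07 for mt-Nd1. These transcripts sit on a genome with little spacing, so that mt-Nd5 and mt-Nd6 overlap by 0.767% of mt-Nd5 on opposite strands, and reads there could count for either gene where strand was not used.

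Several mitochondrial genes have near-identical nuclear copies, in a block of chromosome 1 (GRCm38, minus strand), and the sequences show how little separates them. The 3 lines below give the same 90 bases, from position 445 to 534 of mt-Co2, in the mitochondrial gene (chrM:7013-7696, plus strand), in its chromosome 1 copy Gm28661 (chr1:24614885-24615565) and in a chromosome 2 copy, Gm13341 (chr2:22587291-22587962, minus strand). Capitals mark bases that differ from mt-Co2, and the stretch is the one where the chromosome 2 copy differs most. All 3 were read from the annotated transcripts of GENCODE M21.
mt-Co2: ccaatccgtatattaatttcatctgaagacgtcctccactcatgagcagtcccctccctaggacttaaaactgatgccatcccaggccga
Gm28661: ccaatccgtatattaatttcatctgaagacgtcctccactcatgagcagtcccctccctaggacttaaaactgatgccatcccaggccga
Gm13341: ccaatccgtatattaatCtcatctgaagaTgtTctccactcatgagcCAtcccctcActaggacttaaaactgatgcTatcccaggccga
Gm28661 has 0 differences over its 681 aligned bases, so no read inside them could tell it from mt-Co2. Gm13341 has 7 differences in this stretch and 16 over 672 bases.

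The counts of the gene and its chromosome 1 copy were nearly equal in every library. mt-Co2 had 516514 counts over all lines and Gm28661 had 518062, so that the mitochondrial gene held 49.9% of the pair. Over the 12 libraries that share had an SD of 0.00866 percentage points, whereas independent counting of that many reads would give about 0.175. The mitochondrial gene also held 49.9% of the pairs mt-Co3 with Gm28437 (526420 and 528174 counts), mt-Nd3 with Gm28438 (59697 and 60013) and mt-Nd4l with Gm10222 (16875 and 16963). Those 3 shares varied more over the libraries, with SDs of 0.0276, 0.114 and 0.0697 percentage points. Independent counting would give about 0.172, 0.510 and 0.996. mt-Nd4, only part of which has a copy, held 66.2% of its pair, and mt-Atp6 held 36.8%. The sources used here do not say whether reads that fit both places were counted at each or divided between them, so the levels of these 6 genes are uncertain. The fold changes moved with those of the copies, at 0.03 for both mt-Co2 and Gm28661. mt-Nd5 had 1 copy with 0 counts and mt-Nd6 had none.

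**Figure D5:**
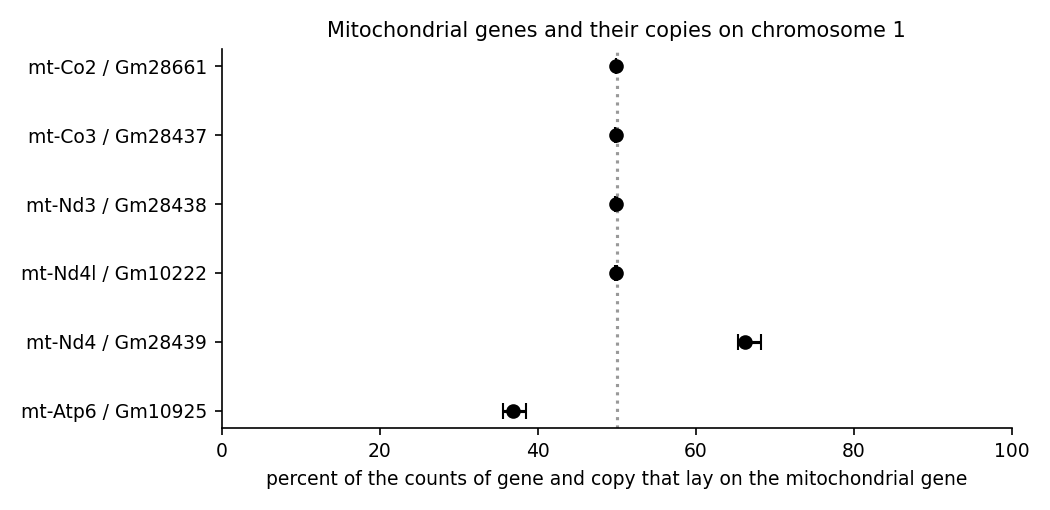
Percent of the counts of each mitochondrial gene and its chromosome 1 copy that lay on the mitochondrial gene (x axis), over all libraries (points) with the lowest and highest of 12 libraries (bars). The dotted line marks equal counts. The pairs of mt-Co2, mt-Co3, mt-Nd3 and mt-Nd4l sit at 49.9% in every case.

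The promoters of the nuclear members were examined because they share known regulators. Windows from 250 bases before to 50 after the start were available from RefSeq (GRCm38.p6) for 74 nuclear members, with 79 windows in all. The letters of the NRF1 motif, GCGCA and GCGC with any base between them, were present on either strand in 25.3% of these windows, compared with 8.54% of windows of tested genes and 4.60% of all windows. The YY1 motif, AANATGGCG, was in 13.9%, 4.25% and 2.38%, the ETS motif bound by GABP, CCGGAAG, in 22.8%, 15.5% and 8.86%, and the ERR motif, TCAAGGTCA, in 2.53%, 0.299% and 0.423%. None of these motifs contains another. Members whose lines were all lower in TPS carried the NRF1 letters in 28.1% of 32 windows and the other tested members in 23.9% of 46. The windows below, from 3 members called lower and from Uqcrc1, are examples with NRF1 or YY1 matches, which are in capitals.
Sdha, chr13:74350221-74350358, minus strand: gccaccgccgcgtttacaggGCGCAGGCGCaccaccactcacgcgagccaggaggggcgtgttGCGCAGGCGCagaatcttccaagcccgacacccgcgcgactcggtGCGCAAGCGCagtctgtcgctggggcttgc
Uqcrc1, chr9:108936633-108936697, plus strand: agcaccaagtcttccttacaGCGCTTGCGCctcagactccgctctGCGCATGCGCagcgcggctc
Ndufs4, chr13:114388045-114388079, minus strand: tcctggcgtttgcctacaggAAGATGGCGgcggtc
Ndufb11, chrX:20617802-20617850, minus strand: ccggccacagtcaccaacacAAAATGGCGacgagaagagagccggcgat
Sdha carries 3 NRF1 matches, as does Ndufb4, and Uqcrc1 carries 2, while Ndufs4 and Ndufb11 carry 1 YY1 match each, 2 of 11 windows with that motif. The windows of Cox6b2, Cox7b and Ndufb5, also called lower, hold none of these letters. A match describes the sequence and does not show binding.

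Of the genes for factors that bind these motifs, Nrf1, Gabpa, Yy1 and Esrra did not pass the test, and Esrrb fell. Nrf1 measured 57.8, 62.8 and 67.2 CPM in TPS and 61.7, 72.7 and 71.0 CPM in EPS lines, with a log2 fold change of -0.13 (edgeR adjusted p = 0.52). Gabpa had -0.37 (edgeR adjusted p = 0.0849), Yy1 had 0.30 (edgeR adjusted p = 0.224) and Esrra had 0.54 (edgeR adjusted p = 0.0585). Of 18 tested regulators of mitochondrial biogenesis, 4 fell (22.2%, beside 7.34% of all tested genes) and 1 rose (5.56%, beside 14.4%) in TPS lines, with a median of -0.14. Those with the smallest p among the 4 were Tfeb, a regulator of lysosomal genes (-2.02, edgeR adjusted p = 0.000487), Esrrb, an orphan receptor that is also a pluripotency factor (-1.36, edgeR adjusted p = 0.00219), and Sirt3, the mitochondrial deacetylase (-0.96, edgeR adjusted p = 0.0336). Ppargc1b, a coactivator, also fell (-1.03, edgeR adjusted p = 0.0397). The riser was Myc, at 15.6, 19.2 and 48.1 CPM in TPS and 7.27, 5.70 and 9.10 CPM in EPS lines (1.91, edgeR adjusted p = 0.022).

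Genes that build and feed the complexes were described in the same way, beside the same 7.34% of all tested genes that fell and 14.4% that rose. Of 40 tested other assembly factors, 5 (12.5%) fell and 0 rose, with a median of -0.22. The 3 with the smallest p were Foxred1, a complex I factor (-0.89, edgeR adjusted p = 0.00842), Tmem186, also of complex I (-0.69, edgeR adjusted p = 0.0225), and Surf1, a complex IV factor (-0.61, edgeR adjusted p = 0.0322). Of 24 tested electron carriers and other inputs to the chain, 2 (8.33%) fell, Prodh (-1.06, edgeR adjusted p = 0.0128) and Dhodh (-0.91, edgeR adjusted p = 0.0141), which pass electrons from proline and dihydroorotate to ubiquinone. Of 36 tested genes for mitochondrial DNA and RNA upkeep, 3 (8.33%) fell: Tefm, the transcription elongation factor (-0.78, edgeR adjusted p = 0.0234), Mgme1 and Hsd17b10. Tfam, which packages mitochondrial DNA, and the polymerase gene Polrmt had log2 fold changes of -0.15 and -0.17 and did not pass. Of 74 tested mitochondrial ribosomal protein genes, 2 (2.7%) fell, Mrpl45 and Mrpl24, with a median of -0.15. The shares of electron carriers and of DNA and RNA upkeep genes that fell were thus close to the background, and that of ribosomal protein genes was below it.

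Among adenine nucleotide carriers and uncoupling proteins, 1 of 7 tested genes (14.3%) rose, close to the 14.4% of all tested genes. This was Slc25a31, the testis ADP/ATP carrier, at 17.6, 13.8 and 10.3 CPM in TPS and 0.522, 0.176 and 0.540 CPM in EPS lines, a log2 fold change of 5.06 (SE 0.48, edgeR adjusted p = 0.00159). The ubiquitous carriers Slc25a4 and Slc25a5 had 0.52 and -0.19 and did not pass. In the citric acid cycle and pyruvate dehydrogenase list, 6 fell (21.4%, beside 7.34% of all tested genes) and 2 rose (7.14%, beside 14.4%) of 28. The testis pyruvate dehydrogenase gene Pdha2 rose from 0.0652, 0.118 and 0.114 CPM in EPS lines to 6.17, 2.10 and 2.60 CPM in TPS lines (5.14, edgeR adjusted p = 0.00295). Slc25a31 and Pdha2 both passed the filter on low counts only through the TPS lines. Slc25a31 reached the filter's level in 3 TPS and 2 EPS lines, and Pdha2 in 3 TPS and 0 EPS lines. Both calls are given as a description. The X-linked Pdha1 fell (-0.70, edgeR adjusted p = 0.0172). Mdh2 rose (0.51, edgeR adjusted p = 0.0192), and Ogdhl (-1.09, edgeR adjusted p = 0.00758) and Pdhb (-0.57, edgeR adjusted p = 0.0274) fell. Of 24 glycolysis genes, 2 fell (8.33%, close to the background), Ldhb (-1.98, edgeR adjusted p = 0.0019) and Aldoc (-1.77, edgeR adjusted p = 0.0469), with a median of -0.32.

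Technical replicates counted as separate samples would have given more calls. On the 12 libraries, 45 of 87 tested nuclear members were called lower, which is 51.7%, beside 23.3% of all tested genes. Libraries of 1 line are not independent cultures, so these calls rest on the technical spread. On the 6 lines, only Cox6b2 was called lower when any 1 TPS line or EPS line 1 was left out, beside 2.74% to 4.46% of all tested genes. The count was 10 without EPS line 2, beside 4.40% of all tested genes, and 5 without EPS line 3, beside 5.76%.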

How the data were processed

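The authors trimmed reads with fastp 0.19.7 and mapped them with STAR 2.7.3a, as listed in the submitters' processing notes, and deposited whole-number counts per gene for each library, without normalization. The counting tool, its use of strand and its handling of multiply mapped reads are not given in the sources used here. Gene identifiers without version were matched to GENCODE M21 (GRCm38), which matched 55141 of 55401. Counts of both technical replicates were added up per line. TPS and EPS lines (3 each) were compared with edgeR 4.0.16 (R 4.3.3), TMM factors and filterByExpr (minimum count 10, total 15), with Benjamini-Hochberg adjustment and a threshold of 0.05. CPM used the total times the TMM factor. TPM used exon length and served to order levels and give isoform shares, which were compared between groups by their ranges, with no test. Standard errors are the log2 fold change over the square root of F. Near-identical copies were found with blastn 2.17.0 (at least 95% identity over 50% of a transcript).

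Named were all mitochondrial members, called nuclear members, the highest per length and the largest change in each direction per complex, tissue-restricted isoforms, and from the other lists the 3 called genes with the smallest p in each direction. Other genes were named after their values were seen. Members not named in the text enter the counts, medians and sums, and 1 of them is not reported here by name for reasons other than its values. Members and lists were chosen with earlier results of these data known. Of the listed symbols, 3 were not matched. Alternatives were DESeq2 1.42.0, limma 3.58.1, other scalings and filters, single technical replicates, 12 separate libraries, a stricter threshold, a replicate block, added copies and leaving out each line. An exact permutation of 3 against 3 lines cannot give a p under 0.1.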

Additional observations from a re-analysis of the deposited data

How the results depend on the processing

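The median of the nuclear members was negative and that of the mitochondrial members positive under each alternative that gave a value. Leaving out 1 line moved the nuclear median between -0.46 and -0.20 and the mitochondrial one between 0.05 and 0.25. Without composition factors the median of all tested genes shifted to 0.14, and the nuclear median relative to it was -0.36, as with TMM factors. Counts were less stable. The number of nuclear members called lower (8, or 8.99%, beside 7.34% of all tested genes) is given here with the share of all genes tested under the same setting. It became 1 with library size only (beside 4.29%), 3 with upper quartile factors (5.81%), 13 of 90 with DESeq2 on 6 lines (14.4%, beside 7.61%), 45 with edgeR (51.7%, beside 23.3%) and 45 with DESeq2 on 12 libraries (50%, beside 16.5%), 5 with technical run 1 alone (5.75%, beside 6.6%), 18 of 91 with no filter (19.8%, beside 4.71%), 5 with a filter of 1 CPM (5.75%, beside 7.52%), 0 at a threshold of 0.01 (beside 1.48%), and 1 to 10 when a line was left out (beside 2.74% to 5.76%). The share of nuclear members was thus below that of all genes under some settings and above it under others. The number called higher (2, beside 14.4% of all tested genes) became 1 with technical run 1 or 2 alone (beside 12.8% and 12.9%), with the 1 CPM filter (14.1%) and at 0.01 (5%), 3 with DESeq2 on 12 libraries (24.1%), and 1 to 2 when a line was left out (8.98% to 12.5%), and its share of nuclear members, at most 3.33%, was below that of all genes in each. Mitochondrial members called (0) became 2 with library size only (mt-Nd5 and mt-Nd6, 15.4% beside 17.1% of all tested genes called higher), 3 on 12 libraries with edgeR (23.1% beside 26.2%) and 3 with DESeq2 (23.1% beside 24.1%), these being mt-Nd4, mt-Nd5 and mt-Nd6, and 1 with technical run 1 alone (mt-Nd5, 7.69% beside 12.8%), each at or below the background. The causes were not tested. Up to 11 nuclear members changed sign under a setting (11 with library size only, 9 without EPS line 1), of which none was a called member. Mitochondrial members that changed sign were mt-Atp6 (0.046 with library size only), and mt-Co1 (-0.036) and mt-Co2 (-0.025) with technical run 2 alone. When a line was left out, mt-Co1 ran from -0.071 to 0.095, mt-Co2 from -0.093 to 0.11, mt-Atp6 from -0.20 to 0.026, mt-Nd1 from -0.11 to 0.25, mt-Nd2 from -0.073 to 0.22 and mt-Nd3 from -0.21 to 0.34. Adding the counts of near-identical copies, or leaving the mitochondrial genes and their copies out of the totals (chosen after seeing the data), left 8 lower and 2 higher. Same-numbered lines had correlations of 0.02, -0.12 and 0.04 and share only a number, and with the line number as a replicate block 2 nuclear members were called lower (beside 4.13% of all tested genes) and 2 higher. Depth limits Cox8c, Cox7b2, Ndufb2 and mt-Atp8, which rest on few counts.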
